A study of Mus musculus with 12 samples.

Results

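The enzymes that modify clock proteins, and a protein that binds them, were followed here through the transcription of 7 genes in mouse liver: the casein kinase 1 genes Csnk1d and Csnk1e, the glycogen synthase kinase gene Gsk3b, the genes Prkaa1 and Prkaa2 of the catalytic subunits of AMP-activated protein kinase (AMPK), the F-box gene Btrc, and Timeless. They were chosen by name for this role and not by their values, although earlier results of these data were known. All 7 were among the 21490 gene symbols of the table. The livers came from adult C57BL/6 mice, 3 to 6 months old and male according to the methods of the study, kept for at least 2 weeks in 12 hr of light and 12 hr of darkness, with no other treatment or allele. Livers were taken every 4 hr of zeitgeber time (ZT, hours since lights on), from ZT0 to ZT20, and each hour has 2 replicates, so that 12 libraries were made. Nascent RNA, which is RNA still attached to chromatin, was sequenced, and each value is a signal per exon base of the gene, in reads per base pair (rpbp). None of the 6 hours is a control, and all were compared with one another.

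The circadian clock is a feedback loop in which CLOCK and BMAL1 drive the Period (Per) and Cryptochrome (Cry) genes, whose proteins return to the nucleus and repress CLOCK and BMAL1. Its speed depends on how fast PER and CRY are destroyed: casein kinase 1 delta and epsilon phosphorylate PER, and the F-box protein β-TrCP, the product of Btrc, binds phosphorylated PER for ubiquitination and degradation. GSK3β phosphorylates several clock proteins, and AMPK, a sensor of cellular energy in the liver, phosphorylates CRY1 and marks it for degradation. TIMELESS travels with the replication fork, where it pairs with TIPIN, and also binds CRY proteins.

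Of the 7 genes, 5 had enough signal to be tested. Btrc was the only one of these that met the criteria for a daily rhythm, beside 15.1% of all tested symbols, and the call held in 6 of the 12 fits that left out 1 library. Timeless was the only one of the 5 that differed between time points by an adjusted test of any shape of change, beside 7.65% of all tested symbols, and that call held in 1 of 12 such fits. Read against these shares, a count of 1 among 5 is no result about the genes as a group. Btrc signal was highest at ZT8 and lowest at ZT16, and Timeless the other way round, highest at ZT16 and lowest at ZT8. Csnk1d and Gsk3b varied less over the libraries than most tested genes, and Prkaa2 varied mostly between replicates of the same time point. Within both pairs of paralogues 1 gene had the higher signal in 12 of 12 libraries, Csnk1d over Csnk1e and Prkaa2 over Prkaa1.

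The 5 tested genes were those above 6 rpbp in at least 1 library, which is the threshold of the study. Csnk1d and Prkaa2 were above it in 12 libraries, Gsk3b in 9, Btrc in 4 and Timeless in 3. Csnk1e, with a highest value of 2.5 rpbp, and Prkaa1, with a highest value of 4.1 rpbp, never passed it, and values for them over the day come from fits without the threshold. Btrc and Timeless therefore entered through the libraries in which they were high.

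The libraries were not equal in level or in base composition. The median log2 deviation of the tested symbols from their mean ranged from −0.20 in ZT16 replicate 2 to 0.13 in ZT0 replicate 2. Between the lowest and the highest of 20 bins of exon GC content, that deviation changed by between −1.21 (ZT8 replicate 2) and 0.57 (ZT16 replicate 1). Each library of ZT8 and ZT20 was sequenced in 2 lanes and each of the other 8 in 1, so lanes and time points cannot be told apart for these hours. Of 7 hepatocyte markers, 6 were above 6 rpbp, and their summed signal was 562 to 1597 rpbp, against 14.7 to 49.7 for 5 Kupffer cell markers, 9.9 to 24.2 for 5 endothelial markers, 8.1 to 12.9 for 5 stellate cell markers, 0.8 to 2.2 for 3 biliary markers and 2.5 to 8.7 for 4 blood cell markers. None of these markers was at 0 in every library. In whole liver, fewer cells of a type and less RNA per cell cannot be told apart.

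The promoter of Timeless is shown because Timeless is the gene whose signal differed between time points, and those of Prkaa1 and Prkaa2 because they are the paralogues with promoter entries for both members. The windows come from RefSeq (GRCm38.p6, another build than the mm9 of the signal). Their starts were not matched to the gene starts of mm9, so a window can lie at an alternative start within the gene. The Timeless sequence is chr10:128237816-128238065 on the + strand, the Prkaa1 sequence chr15:5143611-5143860 on the + strand, and the Prkaa2 sequence chr4:105109899-105110148 on the − strand, each 250 bases that end just before the annotated transcription start. Capitals mark a D-box, the element bound by the DBP, TEF and HLF factors.
Timeless: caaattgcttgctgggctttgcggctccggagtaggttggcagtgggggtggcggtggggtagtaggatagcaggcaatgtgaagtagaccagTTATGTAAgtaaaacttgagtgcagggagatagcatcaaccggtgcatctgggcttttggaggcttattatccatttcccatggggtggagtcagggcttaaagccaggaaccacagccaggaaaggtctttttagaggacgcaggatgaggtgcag
Prkaa1: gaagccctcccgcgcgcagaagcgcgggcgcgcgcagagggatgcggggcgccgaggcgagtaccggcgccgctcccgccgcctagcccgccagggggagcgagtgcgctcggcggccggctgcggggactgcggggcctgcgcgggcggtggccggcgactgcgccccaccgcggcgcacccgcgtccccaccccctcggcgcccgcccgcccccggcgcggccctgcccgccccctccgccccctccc
Prkaa2: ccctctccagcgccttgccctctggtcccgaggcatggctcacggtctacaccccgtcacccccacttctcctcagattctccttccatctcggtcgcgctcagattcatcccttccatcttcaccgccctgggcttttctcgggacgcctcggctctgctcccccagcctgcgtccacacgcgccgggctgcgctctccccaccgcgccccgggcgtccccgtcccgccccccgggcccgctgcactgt

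The capitals in Timeless spell TTATGTAA, beginning at position −157, counted from the transcription start that RefSeq gives for this window. Each window of 300 bases, which also holds the 50 bases after the start, was searched on both strands for the D-box (TTACATAA, TTACGTAA or TTATGTAA), the E-box bound by CLOCK and BMAL1 (CACGTG), an E-prime box (AACGTG or its reverse complement CACGTT), and the element bound by ROR and REV-ERB factors (TAGGTCA or its reverse complement TGACCTA). Over all 27025 genes with a window, 1.23% held a D-box, 8.09% an E-box, 5.44% an E-prime box and 2.97% a ROR and REV-ERB element. Besides this D-box, the windows of Timeless, Csnk1e, Gsk3b, Prkaa1 and Prkaa2 held none of these letters. Of the window of Timeless 52.3% was G or C, with 5 CG pairs, against 82% and 52 CG pairs for Prkaa1 and 72.7% and 35 CG pairs for Prkaa2. A match is a description of the letters and not a site of binding. Btrc and Csnk1d are named only.

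The casein kinase 1 genes encode close relatives that share PER as a substrate. Csnk1d lies on the − strand of chromosome 11 (mm9, 120819779 to 120852647), is annotated as protein coding and has 15 merged exons. Exon counts here and below come from GENCODE M1, whereas the authors took the signal over the exons of UCSC genes. Csnk1d overlaps Slc16a3, on the opposite strand, over 536 bp, and that gene ranged from 0.1 to 1.6 rpbp. In replicate 1 Csnk1d was at 7.2 rpbp at ZT0, 7.3 at ZT4, 7.9 at ZT8, 8.8 at ZT12, 7.9 at ZT16 and 8.5 at ZT20. In replicate 2 it was at 8.9, 7.2, 6.5, 9.8, 6.1 and 8.4 rpbp at the same hours. Both replicates were highest at ZT12, whereas the lowest value fell at ZT0 in replicate 1 and at ZT16 in replicate 2. The ZT12 mean of 9.30 ± 0.707 rpbp (SD, n = 2) was 1.33-fold that of ZT16 (7.0 ± 1.27 rpbp, SD, n = 2). F24, which is the fraction of the variance of the 12 values held by the 24-hr component, was 0.0531 (permutation p = 0.778, adjusted p = 0.905, one-sided), and the moderated F-test of limma between hours gave an adjusted p of 0.565. The amplitude of the fitted 24-hr wave was 4.23% ± 5.96 of the mean (SE, 12 libraries). The SD over the libraries was 0.136 of the mean, at percentile 6.94 of all tested symbols, whose median was 0.252.

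Csnk1e lies on the − strand of chromosome 15 (mm9, 79248286 to 79272437), with 14 merged exons. Its signal in replicate 1 was 1.4 rpbp at ZT0, 1.2 at ZT4, 1.6 at ZT8, 2.3 at ZT12, 1.7 at ZT16 and 1.9 at ZT20. In replicate 2 it was 1.8, 1.1, 1.3, 2.5, 1.7 and 1.3 rpbp. In both replicates the highest value was at ZT12 and the lowest at ZT4, with means of 2.40 ± 0.141 and 1.15 ± 0.0707 rpbp (SD, n = 2), a ratio of 2.09. At this level values are given to 1 decimal, so that 0.1 rpbp is a sizeable step. F24 was 0.445, below the limit of 0.45, with a permutation p of 0.0752 when no signal threshold was set. Limma's F-test without a threshold gave an adjusted p of 0.196.

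Csnk1d signal was above that of Csnk1e in 12 of 12 libraries, as values per base pair allow. The ratio of their mean rpbp values over the 12 libraries was 4.77, and the ratio within single libraries ranged from 3.59 to 6.55. The difference in log2(rpbp + 1) was 1.751 ± 0.175 (SD, n = 12 libraries; exact sign-flip test, two-sided, p = 0.000488, the smallest that 12 libraries allow, adjusted p = 0.000854 over 21 pairs of genes). On the log2 scale, the ratio of these paralogues was lower at ZT12 than at ZT4 in both replicates, with F24 = 0.505 and a phase of 1.7 hr (permutation p = 0.0393, adjusted p = 0.0786 over 2 pairs). That adjusted p did not pass 0.05 except when ZT20 replicate 2 was left out (F24 = 0.714, adjusted p = 0.00542). Across the 12 libraries, which share depth and base composition between genes, the 2 paralogues had a Pearson correlation of 0.65 in log2 signal.

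**Figure D1:**
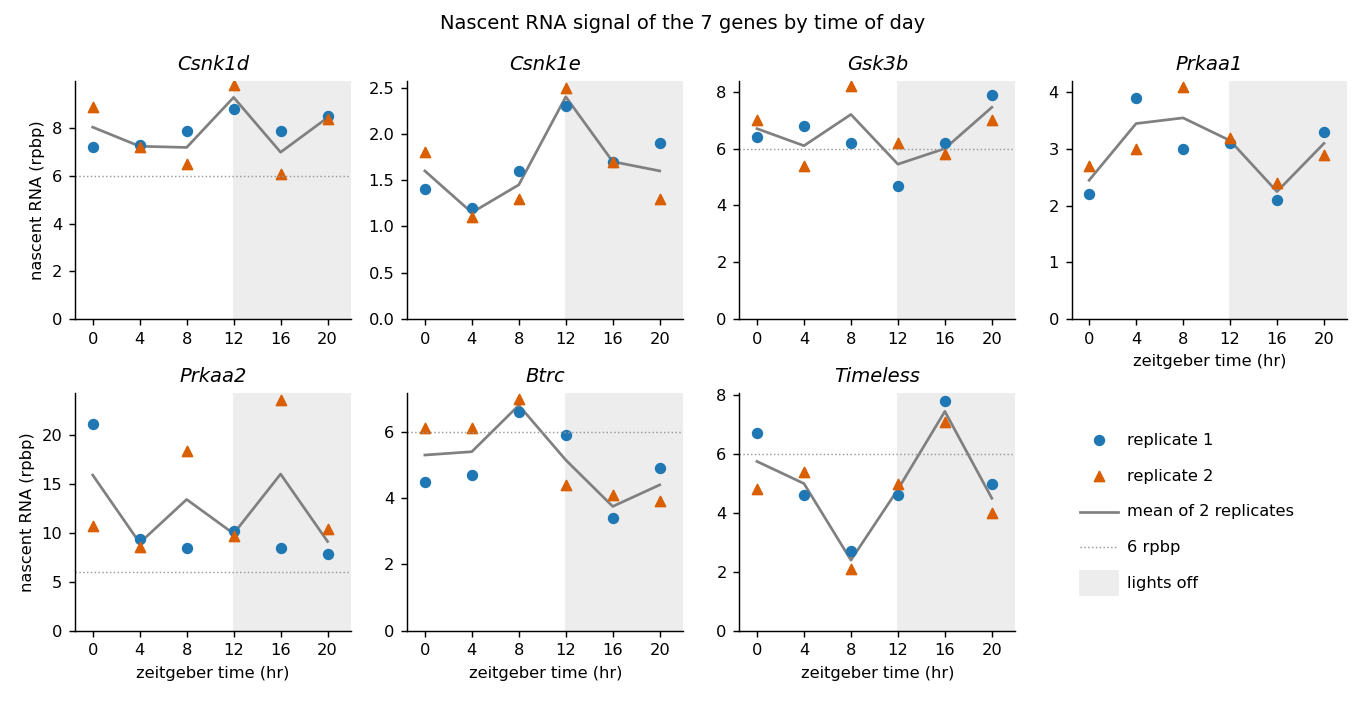
Nascent RNA signal (rpbp, vertical axes from 0) of the 7 genes against zeitgeber time (hr), with circles for replicate 1, triangles for replicate 2, a line through the mean of 2 replicates, a dotted line at the threshold of 6 rpbp where the axis reaches it, and shading for lights off. Btrc peaks at ZT8 and Timeless has its lowest values there, whereas the Prkaa2 replicates part at ZT0, ZT8 and ZT16.

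Gsk3b encodes a kinase that acts in insulin and Wnt signaling as well as on clock proteins. It lies on the + strand of chromosome 16 (mm9, 38089087 to 38246165), with 13 merged exons. Its signal in replicate 1 was 6.4 rpbp at ZT0, 6.8 at ZT4, 6.2 at ZT8, 4.7 at ZT12, 6.2 at ZT16 and 7.9 at ZT20. Those of replicate 2 were 7.0, 5.4, 8.2, 6.2, 5.8 and 7.0 rpbp. The replicates did not share their highest or lowest hour. The mean of ZT20 (7.45 ± 0.636 rpbp, SD, n = 2) was 1.37-fold that of ZT12 (5.45 ± 1.06 rpbp, SD, n = 2). F24 was 0.128 (permutation p = 0.536, adjusted p = 0.785) and limma's adjusted p was 0.584. The amplitude of the 24-hr wave was 7.36% ± 6.40 of the mean (SE, 12 libraries), and the SD was 0.152 of the mean, at percentile 11.4 of the tested symbols. The neighbor Nr1i2, the gene of the nuclear receptor PXR, lies 2269 bp beyond the end of Gsk3b on the opposite strand and ranged from 13.8 to 49.3 rpbp, with its highest values at ZT12, where Gsk3b was at 4.7 and 6.2 rpbp.

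AMPK is a trimer whose catalytic α subunit comes from Prkaa1 (α1) or Prkaa2 (α2). Prkaa2 lies on the − strand of chromosome 4 (mm9, 104707595 to 104782474), with 9 merged exons, and no other symbol lay within 10 kb. In replicate 1 Prkaa2 was at 21.2 rpbp at ZT0, 9.4 at ZT4, 8.5 at ZT8, 10.2 at ZT12, 8.5 at ZT16 and 7.9 at ZT20. In replicate 2 it was at 10.7, 8.6, 18.4, 9.7, 23.6 and 10.4 rpbp. Thus 3 libraries stood high, ZT0 replicate 1, ZT8 replicate 2 and ZT16 replicate 2, each beside a replicate between 8.5 and 10.7 rpbp. The higher replicate was 1.98-fold the lower at ZT0, 2.16-fold at ZT8 and 2.78-fold at ZT16, and between 1.05-fold and 1.32-fold at the other hours. Replicates at least as far apart in log2(rpbp + 1) were found for 3.21% of the tested symbols at ZT0, 5.65% at ZT8 and 4.82% at ZT16.

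The spread of Prkaa2 within time points exceeded that between them. Of its variance, 33.2% lay between the time points, against a median of 63.3% over the tested symbols and 45.5% expected of random values. F24 was 0.0116 (permutation p = 0.961, adjusted p = 0.984) and limma's adjusted p was 0.649. The amplitude of the 24-hr wave was 6.54% ± 20.1 of the mean (SE, 12 libraries), an error that leaves room for a rhythm of moderate size. The SD was 0.448 of the mean, at percentile 85.1 of the tested symbols.

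Prkaa1 lies on the + strand of chromosome 15 (mm9, 5093861 to 5131899), with 9 merged exons, and overlaps AK021004 over 6815 bp. Its signal in replicate 1 was 2.2 rpbp at ZT0, 3.9 at ZT4, 3.0 at ZT8, 3.1 at ZT12, 2.1 at ZT16 and 3.3 at ZT20. Those of replicate 2 were 2.7, 3.0, 4.1, 3.2, 2.4 and 2.9 rpbp. Both replicates were lowest at ZT16, and at no hour did their values differ by more than 1.37-fold. The highest mean was that of ZT8 (3.55 ± 0.778 rpbp) and the lowest that of ZT16 (2.25 ± 0.212 rpbp; SD, n = 2). F24 was 0.352, with a permutation p of 0.148 when no signal threshold was set, and limma without a threshold gave an adjusted p of 0.307. The signal was not recorded by strand, so reads of AK021004, which ranged from 0.8 to 2.3 rpbp, cannot be told apart from those of Prkaa1 where they overlap.

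Prkaa2 signal was above that of Prkaa1 in 12 of 12 libraries. The ratio of their mean rpbp values was 4.10, and the ratio within single libraries ranged from 2.39 to 9.83. The difference in log2(rpbp + 1) was 1.65 ± 0.601 (SD, n = 12 libraries; exact sign-flip test, two-sided, p = 0.000488, adjusted p = 0.000854). F24 of this log2 ratio was 0.0789 (permutation p = 0.679, adjusted p = 0.679). The ratio was highest in the libraries where Prkaa2 stood high and varied more than that of the casein kinase genes, with SDs of 0.601 and 0.175.

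**Figure D2:**
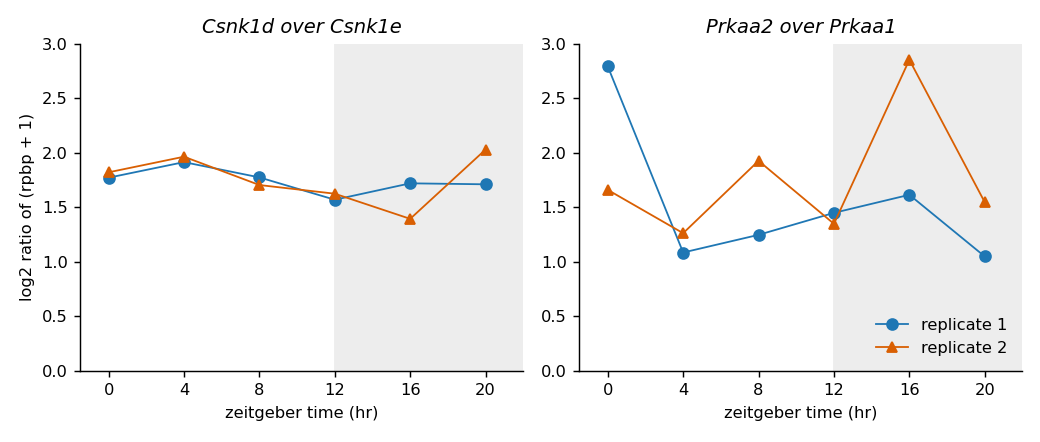
Log2 ratio of (rpbp + 1) of Csnk1d over Csnk1e (left) and of Prkaa2 over Prkaa1 (right) against zeitgeber time (hr), with a circle or triangle for each library, a line for each replicate series and shading for lights off. All 24 ratios lie above 0, and those of Prkaa2 over Prkaa1 spread more widely between replicates (SD 0.601 over 12 libraries) than those of Csnk1d over Csnk1e (SD 0.175).

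Btrc encodes the F-box protein that brings phosphorylated PER to an SCF ubiquitin ligase. It lies on the + strand of chromosome 19 (mm9, 45438241 to 45604503), with 15 merged exons, and the symbol mKIAA4123 lies wholly within it. In replicate 1 Btrc was at 4.5 rpbp at ZT0, 4.7 at ZT4, 6.6 at ZT8, 5.9 at ZT12, 3.4 at ZT16 and 4.9 at ZT20. Replicate 2 gave 6.1, 6.1, 7.0, 4.4, 4.1 and 3.9 rpbp. Both replicates peaked at ZT8, and the low values lay in the dark phase, at ZT16 in replicate 1 and at ZT16 and ZT20 in replicate 2. The ZT8 mean of 6.80 ± 0.283 rpbp was 1.81-fold the ZT16 mean of 3.75 ± 0.495 rpbp (SD, n = 2). The symbol mKIAA4123, which begins at the same base as Btrc, ranged from 2.0 to 3.3 rpbp, and its reads cannot be told apart from those of Btrc. It did not repeat the ZT8 peak in both replicates. At ZT8 it was at 3.3 and 2.5 rpbp, the latter its lowest value in replicate 2, and at ZT16 at 2.2 and 3.0 rpbp. Its correlation with Btrc in log2 signal was 0.48 over the 12 libraries.

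The criteria of the study for a rhythm are a permutation p under 0.05 before adjustment, F24 over 0.45 and a highest library over 1.5 times the lowest. Btrc met them, with F24 = 0.554, a peak phase of 6.24 hr (ZT6.24) and a highest library at 2.06 times the lowest (permutation p = 0.0356, adjusted p = 0.264 over 6284 tested symbols). It was the only one of the 5 tested genes to do so, beside 15.1% of all tested symbols, and it did not reach the stricter F24 of 0.6 that the study asks of a strong rhythm, called for 6.38% of them. The amplitude of the 24-hr wave was 22.8% ± 6.83 of the mean (SE, 12 libraries), and the phase was 8.11 hr in replicate 1 and 5.03 hr in replicate 2. Limma's F-test did not call Btrc (adjusted p = 0.269). The rhythm call sat close to its limit. It was lost when the libraries were rescaled to a common median (F24 = 0.487, permutation p = 0.0520) or the trend with exon GC content was removed (F24 = 0.432, permutation p = 0.0655), and without ZT8 replicate 1 (permutation p = 0.0781), ZT16 replicate 1 (0.0758), ZT4 replicate 2 (0.0649), ZT8 replicate 2 (0.0846), ZT16 replicate 2 (0.0645) or ZT20 replicate 2 (0.0723). The median log2 deviation of symbols with the exon GC content of Btrc (50.8%) was −0.19 in ZT8 replicate 2, 0.15 in ZT12 replicate 2 and −0.16 in ZT16 replicate 2, and the part of this composition in the rhythm was not tested further.

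Timeless lies on the + strand of chromosome 10 (mm9, 127669145 to 127689990), with 28 merged exons. In replicate 1 it was at 6.7 rpbp at ZT0, 4.6 at ZT4, 2.7 at ZT8, 4.6 at ZT12, 7.8 at ZT16 and 5.0 at ZT20. Replicate 2 gave 4.8, 5.4, 2.1, 5.0, 7.1 and 4.0 rpbp. Both replicates were lowest at ZT8 and highest at ZT16, and neither hour overlapped any other. The ZT16 mean of 7.45 ± 0.495 rpbp was 3.10-fold the ZT8 mean of 2.40 ± 0.424 rpbp (SD, n = 2). Between time points lay 89.7% of its variance, against a median of 63.3% over the tested symbols and 45.5% expected of random values.

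Limma's moderated F-test found that Timeless differed between time points (adjusted p = 0.0370), the only one of the 5 tested genes to pass an adjusted p of 0.05, beside 7.65% of the tested symbols. At an unadjusted p under 0.05 it was also the only one, beside 27.6%. It was not called rhythmic, since F24 was 0.354 (permutation p = 0.145, adjusted p = 0.459), and the wave fitted with a phase of 18.7 hr had an amplitude of 26.9% ± 12.1 of the mean (SE, 12 libraries). The profile has a trough at ZT8 and a peak at ZT16, only 8 hr apart, with values near the middle at ZT4, ZT12 and ZT20. With lanes as a block, F24 was 0.662 (permutation p = 0.0246), and without ZT20 replicate 2 it was 0.561 (permutation p = 0.0341), both of which pass the criteria. The lane block takes out the mean level of ZT8 and ZT20, the trough hour among them, and lanes and these hours cannot be told apart. With that block 1207 of all tested symbols were called rhythmic, against 952 in the main test. Timeless was above 6 rpbp only in ZT0 replicate 1 and both ZT16 libraries, and without that threshold its adjusted limma p was 0.0671, which does not pass 0.05. It was 0.0490 with the GC trend removed, 0.358 over the 4 time points of 1 lane alone and 0.277 for ZT8 against ZT20 alone. It was under 0.05 when ZT0 replicate 2 was left out and ranged from 0.0540 to 0.120 without each of the other 11 libraries, the highest without ZT8 replicate 2. The median log2 deviation of symbols with the exon GC content of Timeless (54.0%) was −0.01 and −0.29 in ZT8 replicates 1 and 2. Downstream on the same strand, 1196 bp away, Apon ranged from 12.1 to 19.8 rpbp and was also lowest at ZT8 (12.9 and 12.1 rpbp), with a correlation of 0.80 with Timeless over the 12 libraries and a limma adjusted p of 0.246. Upstream, Mip was at 0.3 rpbp or below, and AK140919, which overlaps the start of Timeless over 702 bp, at 0.4 rpbp or below.

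Btrc and Timeless ran opposite to each other, with a Pearson correlation of −0.72 in log2 signal over the 12 libraries, and so did Prkaa1 and Timeless (−0.75). At ZT8, Btrc stood at 6.6 and 7.0 rpbp over 2.7 and 2.1 rpbp for Timeless, and at ZT16 Btrc stood at 3.4 and 4.1 rpbp under 7.8 and 7.1 rpbp. Csnk1d and Prkaa2 had a correlation of −0.66. The remaining pairs lay between −0.40 and 0.55, except the pair of casein kinase genes given above. All of these correlations share the libraries, with their depth and base composition, and are descriptions only. Symbols with the exon GC content of Prkaa1 (40.2%) had median log2 deviations of 0.04 and 0.52 in ZT8 replicates 1 and 2. In ZT16 replicates 1 and 2 they were at −0.36 and −0.22. For the exon GC content of Timeless the deviations were −0.01 and −0.29 at ZT8, and 0.08 and −0.19 at ZT16. The part of base composition in these correlations was not tested.

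**Figure D3:**
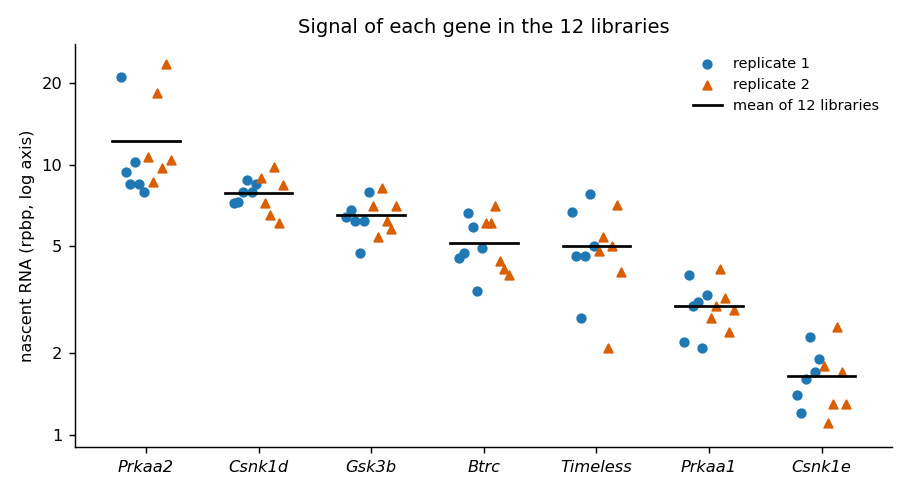
Nascent RNA signal (rpbp, log axis) of each gene in each of the 12 libraries, with circles for replicate 1, triangles for replicate 2 (in the order of the hours from left to right) and a bar at the mean of 12 libraries. The means fall from 12.3 rpbp for Prkaa2 to 1.65 rpbp for Csnk1e. Those of Btrc and Timeless lie close (5.13 and 4.98 rpbp), but the points of Timeless spread more widely (2.1 to 7.8 rpbp) than those of Btrc (3.4 to 7.0 rpbp).

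Ordered by their mean signal over the 12 libraries, the genes were Prkaa2 (12.3 ± 5.49 rpbp, SD, n = 12), Csnk1d (7.88 ± 1.07), Gsk3b (6.48 ± 0.984), Btrc (5.13 ± 1.16), Timeless (4.98 ± 1.66), Prkaa1 (2.99 ± 0.608) and Csnk1e (1.65 ± 0.432). Prkaa2 lay at percentile 92.7 of all 21490 symbols and Csnk1e at percentile 48.6. In exact sign-flip tests over the libraries, 20 of the 21 pairs of genes differed after adjustment over the pairs. Btrc and Timeless, neighbors in this order, were the exception, with a difference of 0.07 ± 0.660 in log2(rpbp + 1) (SD, n = 12 libraries; exact p = 0.733, adjusted p = 0.733) and Btrc higher in 6 of 12 libraries. That SD leaves room for sizeable differences in single libraries, as the values at ZT8 and ZT16 show. For the other pairs of neighbors the mean difference passed the test, although in all of them but Prkaa1 and Csnk1e (0.59 ± 0.337 in log2(rpbp + 1), SD, n = 12 libraries) it was smaller than its SD over the libraries. Prkaa2 was above Csnk1d in 10 of 12 libraries (exact test, adjusted p = 0.00513), Csnk1d above Gsk3b in 11 (adjusted p = 0.00844), Gsk3b above Btrc in 9 (adjusted p = 0.0146), Timeless above Prkaa1 in 10 (adjusted p = 0.0146) and Prkaa1 above Csnk1e in 12 (adjusted p = 0.000854). Libraries of the same hour are not independent of the time of day, and with the 6 time-point means as units 17 of the 21 pairs differed.

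As a reference, the genes of the clock itself were read from the same table. All 11 clock substrates and reference genes (Per1, Per2, Per3, Cry1, Cry2, Arntl, Clock, Npas2, Nr1d1, Nr1d2 and Dbp) were called rhythmic, 9 of them as strong, and 10 passed limma's adjusted test. Their median F24 was 0.772, against 0.128 for the 5 tested genes of the 7 and 0.222 for all tested symbols. Per2 had its highest mean at ZT12 (30.2 rpbp) and its lowest at ZT4 (6.80 rpbp), and Cry1 at ZT20 (12.6 rpbp) and ZT8 (1.25 rpbp). The lowest F24 among them, 0.526 for Cry2, was below that of Btrc. These genes are known for their rhythms, and no test compared the lists.

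**Figure D4:**
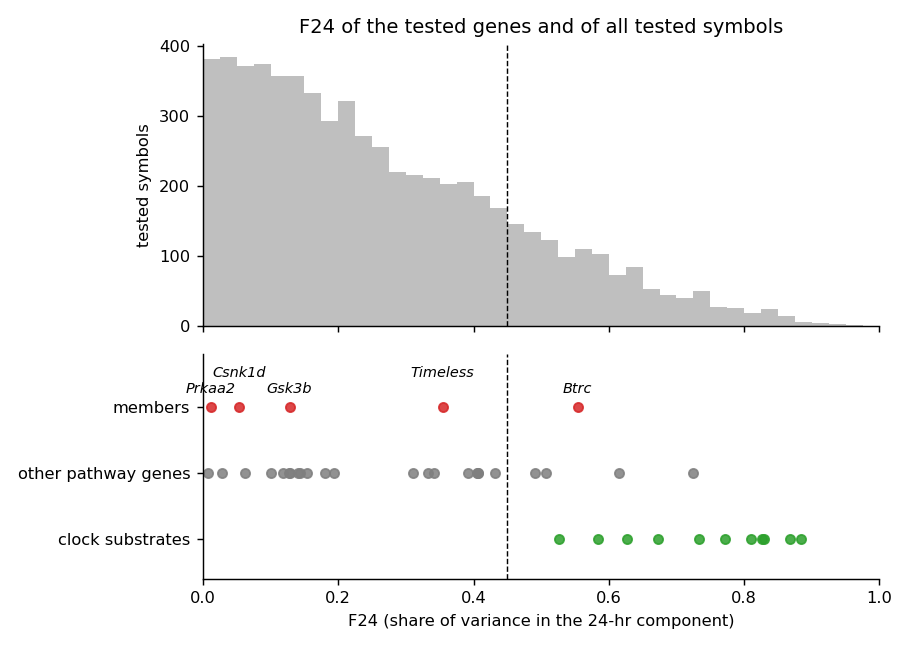
Upper panel, number of tested symbols against F24, the share of variance in the 24-hr component, with a dashed line at the limit of 0.45. Lower panel, F24 of each tested gene on the same axis, with a point per gene. Of the 5 members Btrc alone lies beyond the limit (0.554), beside 4 of 24 other pathway genes and 11 of 11 clock substrates.

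Among the other genes of the pathway, 59 in 5 lists, 24 were tested, 4 were called rhythmic and 2 passed limma's adjusted test. These counts stand beside 15.1% and 7.65% of all tested symbols. Of 14 other clock kinases, 7 were tested and 1 was called, Mapk14, the gene of the stress kinase p38α, with its highest mean at ZT12 (19.4 rpbp) and its lowest at ZT8 (11.7 rpbp; F24 = 0.491, permutation p = 0.0268, adjusted p = 0.234). Csnk1a1, a more distant casein kinase 1 gene, was at 9.7 to 16.7 rpbp with F24 = 0.405 (permutation p = 0.0970). Csnk1g1, Csnk2a1, Csnk2a2, Csnk2b, Gsk3a, Cdk5 and Prkaca did not pass 6 rpbp. Gsk3a, the paralogue of Gsk3b, was at 2.8 to 5.6 rpbp.

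Of 9 genes of AMPK subunits and upstream kinases, 3 were tested and 1 was called. Prkag2, which encodes a regulatory γ subunit, was at 24.0 rpbp at ZT12 on average and at 13.1 rpbp at ZT8 (F24 = 0.508, phase 13.7 hr, permutation p = 0.0230, adjusted p = 0.220; limma adjusted p = 0.0820). The upstream kinase gene Stk11 (LKB1) ranged from 5.5 to 14.6 rpbp (F24 = 0.0283, permutation p = 0.877), and Prkag3 from 0.6 to 9.4 rpbp (F24 = 0.310, permutation p = 0.107). The β subunit genes Prkab1 and Prkab2, as well as Prkag1, Cab39 and Camkk2, did not pass 6 rpbp, and Strada was not analysed here.

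Of 15 other clock ubiquitin ligase and deubiquitinase genes, 10 were tested and 2 were called. Usp2, a deubiquitinase gene, rose from 0.800 rpbp at ZT0 to 7.0 rpbp at ZT12 (F24 = 0.724, phase 12.4 hr, permutation p = 0.00014, adjusted p = 0.0383; limma adjusted p = 0.00424), the only one of these 24 genes to pass the adjusted permutation test. Fbxw11, the paralogue of Btrc, was at 2.9 to 4.2 rpbp and did not pass 6 rpbp, nor did Fbxl21, Skp1a, Rbx1 or Fbxw7.

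Of 6 clock phosphatase genes, 3 were tested and none was called rhythmic, and Ppp1ca passed limma's adjusted test (adjusted p = 0.0477) with its highest mean at ZT0 (7.75 rpbp) and its lowest at ZT8 (3.25 rpbp). Ppp1cb, Ppp1cc and Ppp2cb did not pass 6 rpbp. The count of 4 rhythmic genes in the 5 lists was 2 without ZT4 replicate 2 and 2 without ZT16 replicate 2. The count of 2 by limma was 3 without ZT8 replicate 1, 0 without ZT12 replicate 2 and 1 without each of the other 10 libraries.

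Most genes that work with Timeless at the replication fork or mark proliferation had little signal. Of 15 replication and proliferation genes only Atr, a checkpoint kinase gene, passed 6 rpbp (1.9 to 7.5 rpbp; F24 = 0.194, permutation p = 0.398; limma adjusted p = 0.0641). Tipin, the partner of Timeless, was at 0.4 to 1.8 rpbp, against 2.1 to 7.8 rpbp for Timeless. Mcm7 was at 1.4 to 3.0 rpbp, and Clspn, Wdhd1, Chek1, Pcna, Mcm2, Mcm3, Mcm4, Mcm5, Mcm6, Mki67, Top2a and Ccnb1 were at or below 2.4 rpbp in every library. Atr was highest at ZT8 on average (5.80 rpbp), the hour at which Timeless was lowest. This was not particular to Atr. At their low signal, Clspn, Wdhd1, Chek1, Pcna, Mcm2, Mcm3, Mcm5, Mki67 and Top2a also had their highest mean at ZT8. Tipin, Mcm4, Mcm6, Mcm7 and Ccnb1 had theirs at other hours.

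The tested symbols whose log2 signal was most like that of each gene over the 12 libraries, by Pearson correlation, were Prr14 (0.916) and Ranbp3 (0.896) for Csnk1d, Stx17 (0.888) and Sirt3 (0.883) for Btrc, and Mttp (0.946) and Appbp2 (0.936) for Gsk3b. For Timeless they were Itih3 (0.931) and Atp11a (0.93), both of which were low in the ZT8 libraries and high at ZT16 (Itih3 at 45.3 and 29.6 rpbp at ZT8 and at 338.2 and 302.5 rpbp at ZT16). For Prkaa2 they were D0H4S114 (0.934) and Scp2 (0.921). Scp2, a lipid transfer gene, was at 202.2, 123.0 and 211.9 rpbp in the 3 libraries in which Prkaa2 was high, and at 38.5 to 119.8 rpbp in the other 9. The 2 most alike of 6284 symbols are alike by selection, and these values are a description.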

How the data were processed

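Nascent RNA of purified liver nuclei, depleted of polyadenylated RNA, was sequenced from 12 libraries. Per the labels and methods, reads were processed with CASAVA 1.7 and uniquely mapped to mm9 with TopHat. The deposited signal is the coverage over merged exons divided by their length (rpbp), scaled by the authors to equal read numbers, unstranded, to 1 decimal. Read totals were not used, so no intervals for counting error are given, and 2 replicates limit the precision of each mean. The F24, phase and p-value columns of the authors were not used. After 27919 blank lines were dropped, 21490 symbols remained.

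The 7 genes and the lists were chosen with earlier results of these data known. Tests of F24 (linear values, 100000 permutations, one-sided) and with limma 3.58.1 (moderated F-test, log2(rpbp + 1)) covered the 6284 symbols that exceeded 6 rpbp somewhere, with Benjamini-Hochberg adjustment over all of them. Fold changes are of rpbp means. Levels were compared by exact sign-flip tests paired by library. The labels name no animals, so p-values measure the spread between samples. Named were the 7 genes, overlapping symbols, the 2 most correlated symbols each, and list genes that were called or never above 6 rpbp. A gene that this rule selects is counted but not reported here. Neighbors within 10 kb, further list genes (Csnk1a1, Stk11, Prkag3, Atr) and the examples Per2 and Cry1 were named after their values were seen. Exon GC content came from NCBIM37 with GENCODE M1 for 90.2% of tested symbols (14195 symbols matched by name and 4805 by position alone). Scripts were tested on simulated data.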

Additional observations from a re-analysis of the deposited data

How the results depend on the processing

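The rhythm call of Btrc was the only one among the 5 tested genes, and the count was 0 with a threshold of 12 rpbp, with a mean above 6 rpbp, with rescaled libraries, with the GC trend removed, with the adjusted permutation p, and in either replicate series alone (6 values each). It was 2 with lanes as a block, where 1207 of all tested symbols were called, against 952 in the main test. The count of genes that limma called was 0 at 12 rpbp, with a mean above 6 rpbp, without a threshold (Timeless adjusted p = 0.0671), over the 1-lane time points alone and for ZT8 against ZT20 alone, and 0 to 1 without each library. A stricter threshold leaves fewer genes to test, and the other causes were not tested. Btrc and Timeless were not among the genes tested above 12 rpbp or with a mean above 6 rpbp. The counts of 0 in these settings therefore do not retest their calls. Of the other pathway genes, 2 were rhythmic above 12 rpbp, 2 with a mean above 6 rpbp, 7 without a threshold, 1 by adjusted p, 0 in series 1, 2 in series 2, and 2 to 5 without each library. Limma called 1 of them above 3 rpbp, 0 above 12 rpbp, 0 with a mean above 6 rpbp, 1 without a threshold, 1 over the 1-lane time points, 0 for ZT8 against ZT20, and 0 to 3 without each library. In series 1 alone 15 of the 21 pairs differed. In series 2 alone 0 of the 21 pairs differed (log2 ratio of Csnk1d to Csnk1e 1.76, of Prkaa2 to Prkaa1 1.77, both adjusted p = 0.0505 in the exact test). For these 2 pairs all libraries of the series had the same direction, the most extreme outcome that the test can have. The smallest p it can give is larger with 6 libraries than with 12, so the count of 0 cannot decide whether the pairs differ in series 2. The size of the log2 ratios depended on the value added to rpbp. With 0.1 added in place of 1, over all 12 libraries, it was 2.21 for Csnk1d to Csnk1e and 1.92 for Prkaa2 to Prkaa1. Without each library 19 to 20 pairs differed, the log2 ratios were 1.73 to 1.78 and 1.54 to 1.71, and F24 of the ratio ranged from 0.445 to 0.714 for the casein kinase genes and from 0.0476 to 0.229 for the AMPK genes.

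The replicate numbers did not pair the libraries: over 15 pairs of time points, deviations of the same-numbered libraries had correlations from −0.12 to 0.32, and 5 were above 0.1. With a replicate block the count of rhythmic genes among the 5 was 0 (Btrc permutation p = 0.0501), Timeless kept its limma call (adjusted p = 0.0406), and limma called 1 of the other pathway genes. Over all tested symbols, 952 were rhythmic in the main test, 508 above 12 rpbp, 2220 without a threshold, 39 by adjusted p, 246 in series 1 and 160 in series 2. Limma called 481 of all tested symbols, 133 without a threshold, 120 over the 1-lane time points, 96 for ZT8 against ZT20 and 167 to 663 without each library.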
